A study of Homo sapiens with 4 samples.

Results

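The genes of TNF, of the related ligand TRAIL (TNFSF10) and of the receptors that carry their signals were followed in OVSAYO cells, a human line established from an ovarian clear cell carcinoma (CCC). The set was TNF, TNFRSF1A, TNFRSF1B, TNFSF10, TNFRSF10A, TNFRSF10B, TNFRSF10C, TNFRSF10D, FAS and TRAF1, chosen by name and not by level. The RefSeq accession of a spot assigned it to a gene, which gave 14 probes with 50 spots for the 10 genes, out of 17721 genes with a symbol and 41000 probes on 43376 spots. RNA came from 4 cultures, each on its own single-colour Agilent whole human genome array, all on 1 slide. Cells received a scramble siRNA as negative control (NS-si) or a pool of siRNAs against Sp1 (Sp1-si), a transcription factor that binds GC-rich promoter sites, and were cultured for 40 h. One culture of each kind was then kept for 4 h in 0.5 mM CoCl2, which mimics hypoxia by stabilising HIF proteins (NS-si → CoCl2 and Sp1-si → CoCl2), and the other was left without it. All 4 cultures were transfected, so that untransfected cells were not compared. With 1 array per condition no test was possible, and each ratio below compares a pair of arrays.

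TNF and TRAIL are trimeric ligands. TNF binds TNFRSF1A, a widely expressed receptor with an intracellular death domain, and TNFRSF1B, which lacks that domain and is found mostly on immune and endothelial cells. Through adaptor proteins, of which TRAF1 is one, these receptors activate NFκB and can also start caspase activation. TRAIL binds the death receptors TNFRSF10A and TNFRSF10B and the decoy receptors TNFRSF10C, which has no intracellular part, and TNFRSF10D, whose death domain is truncated. FAS is the death receptor for Fas ligand. The genes TNFRSF10A, TNFRSF10B, TNFRSF10C and TNFRSF10D lie next to each other on 1 chromosome.

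The signal at the 75th percentile was between 977 and 1285 on the 4 arrays, and 75.6% to 79.1% of the probes were well above background. Signals are given after scaling of each array to a common 75th percentile (scaled signal), in arbitrary units that allow comparison of 1 probe between arrays but not of different probes. Values after ± are SDs between spots, which cover technical error on the slide only. For probes with 10 spots, this is the spread of single spots and not the smaller error of their mean. For probes with 1 spot, the SD is the median of the 50 probes of nearest signal that have 10 spots. The scaled signal of SP1, the target of the siRNA, was 543 in NS-si and 492 in NS-si → CoCl2 cells, and 39.9 after Sp1 silencing alone and 33.8 in Sp1-si → CoCl2 cells (A_23_P366312), low in both silenced cultures. All 8 epithelial and CCC markers were well above background on the 4 arrays. Of 5 leukocyte markers 4 were detected and PTPRC, which defines the lineage, was not, and of 3 endothelial markers 1 was, without PECAM1 and CDH5. Both fibroblast markers with a probe were detected. Summed scaled signals of the leukocyte list were 1145 in NS-si and 1404 in NS-si → CoCl2 cells, and 661 after Sp1 silencing alone and 824 in Sp1-si → CoCl2 cells. Those of the fibroblast list were 780 in NS-si and 667 in NS-si → CoCl2 cells, and 372 after Sp1 silencing alone and 373 in Sp1-si → CoCl2 cells. Both sums were thus lower in the Sp1-silenced cultures, and their part in the results below was not tested.

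**Figure D1:**
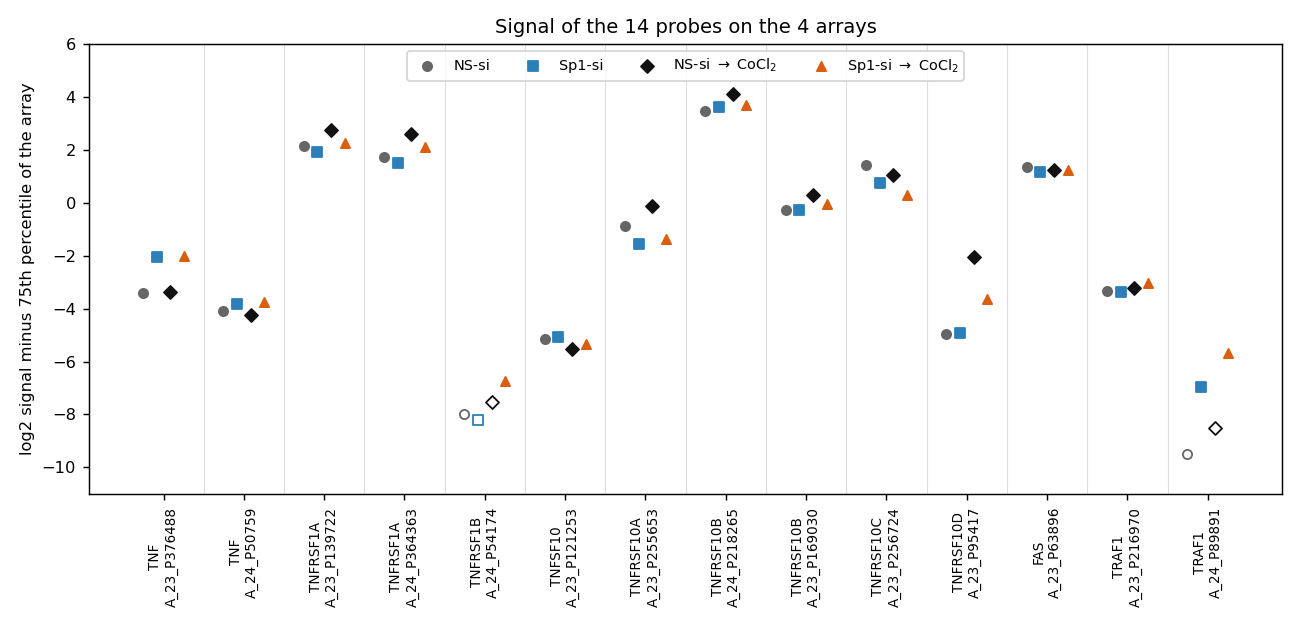
Log2 signal of each of the 14 probes minus the 75th percentile of the array (y axis), 1 symbol per condition; filled symbols were well above background, open symbols were not, and bars are SDs between spots for probes with 10 spots, mostly hidden by the symbols. TNFRSF10D (A_23_P95417) stands highest in NS-si → CoCl2 cells, and TNF (A_23_P376488) stands higher in both Sp1-si cultures than in both NS-si cultures.

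Of the 10 genes, 9 were well above background on all 4 arrays by the probe of highest mean signal, the exception being TNFRSF1B. A change was counted at a log2 ratio of at least 1 in either direction, or at a bound of that size where only 1 of both arrays was well above background. CoCl2 changed 1 gene past this limit in NS-si cells, TNFRSF10D, against 8.88% of the 32875 probes tested. In Sp1-si cells it again changed 1, TNFRSF10D, against 9.89% of all probes. Sp1-si differed from NS-si cells without CoCl2 in 1 gene, TNF, against 11.4% of all probes. Under CoCl2 it differed in 3 genes, TNF (higher), TNFRSF10A and TNFRSF10D (lower), against 15.9% of all probes. The difference between the CoCl2 ratios was past the limit for 1 gene, TNFRSF10D (lower), against 5.91% of all probes, 1.05% higher and 4.87% lower. A count of 1 among 9 or 10 genes is near these shares, 3 of 10 is above, and nothing is read from either about the set as a whole. Since RNA was taken from whole cultures, fewer cells with a transcript and less of it per cell cannot be told apart.

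TNF was higher in Sp1-silenced cells, with or without CoCl2, and its level moved little with CoCl2. The probe of highest signal (A_23_P376488, 1 spot) had a scaled signal of 106 in NS-si and 109 in NS-si → CoCl2 cells, and 267 after Sp1 silencing alone and 280 in Sp1-si → CoCl2 cells. The Sp1-si cultures were thus the high ones. The log2 ratio of Sp1-si to NS-si was 1.33 ± 0.06 without and 1.36 ± 0.07 with CoCl2, 2.51-fold and 2.57-fold. The CoCl2 ratios were 0.03 ± 0.07 in NS-si cells and 0.07 ± 0.06 after Sp1 silencing, within 2 SDs between spots. The other TNF probe (A_24_P50759) has 10 spots and gave the same direction with a smaller size. Its scaled signal was 65.0 in NS-si and 59.8 in NS-si → CoCl2 cells, and 79.2 after Sp1 silencing alone and 83.3 in Sp1-si → CoCl2 cells. Its log2 ratio of Sp1-si to NS-si was 0.29 ± 0.10 without and 0.48 ± 0.05 with CoCl2, short of the limit. Probes of 1 accession thus disagreed on the size of the rise, and with the mean of both probes TNF was no longer past the limit in either comparison. With a normexp background correction, which models background and adds an offset to every signal, the brighter probe was just at the limit without CoCl2 and gave 0.96 with it.

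As Sp1 binds the GC box, the letters GGGCGG were searched on both strands in the 250 bases before each start site in the RefSeq promoter table (GRCh38.p14). A window was found for 6 of the 10 genes, and not for TNFRSF10A, TNFRSF10B, TNFRSF10C and TNFRSF10D. TNF and TNFRSF1B each had 2 matches, FAS had 1 or 2 in each of its 3 windows, TRAF1 had 1 in 1 of its 3 windows, and TNFRSF1A and TNFSF10 had 0. Of all 35116 windows, 42.6% held the motif. The windows of TNF, which was higher after Sp1 silencing, and of its receptor TNFRSF1A, which was slightly lower, are shown from 5′ to 3′ on the strand of the gene. TNF lies at chr6:31575315-31575564 (+) and TNFRSF1A at chr12:6342077-6342326 (-), and capitals mark the motif as read on the other strand.
TNF: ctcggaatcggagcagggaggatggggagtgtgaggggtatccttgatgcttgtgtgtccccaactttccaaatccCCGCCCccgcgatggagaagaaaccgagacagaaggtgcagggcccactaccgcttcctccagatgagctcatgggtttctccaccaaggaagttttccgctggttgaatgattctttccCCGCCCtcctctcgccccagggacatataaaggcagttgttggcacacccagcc
TNFRSF1A: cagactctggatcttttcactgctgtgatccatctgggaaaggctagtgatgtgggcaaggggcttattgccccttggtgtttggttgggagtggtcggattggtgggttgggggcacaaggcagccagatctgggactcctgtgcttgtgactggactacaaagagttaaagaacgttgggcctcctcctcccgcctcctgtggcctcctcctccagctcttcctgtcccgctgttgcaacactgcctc

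Among the TNF receptors, TNFRSF1A was higher with CoCl2 by less than the limit. Its 10-spot probe (A_23_P139722) had a scaled signal of 5019 in NS-si and 7574 in NS-si → CoCl2 cells, and 4255 after Sp1 silencing alone and 5410 in Sp1-si → CoCl2 cells. The order was thus NS-si → CoCl2, Sp1-si → CoCl2, NS-si and Sp1-si, each step larger than 2 SDs between spots, and both TNFRSF1A probes gave it. The CoCl2 ratio was 0.59 ± 0.04 in NS-si cells and 0.35 ± 0.03 after Sp1 silencing, and 0.86 ± 0.03 and 0.60 ± 0.03 for the other probe (A_24_P364363). The ratio of Sp1-si to NS-si was -0.24 ± 0.03 without and -0.49 ± 0.05 with CoCl2, and the other probe gave -0.26 ± 0.03 and -0.51 ± 0.03. The gap between the CoCl2 ratios, Sp1-si minus NS-si, was -0.25 ± 0.05 and -0.26 ± 0.04, but turned to 0.20 and 0.19 without scaling between the arrays.

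TNFRSF1B was well above background only in Sp1-si → CoCl2 cells (A_24_P54174, 1 spot). Its scaled signal was 4.43 in NS-si, 3.82 in Sp1-si and 6.02 in NS-si → CoCl2 cells, not well above background, and 10.54 in Sp1-si → CoCl2 cells. The lowest scaled signal well above background on any array was between 6.84 and 8.91. As a lower bound, the level in Sp1-si → CoCl2 cells was 1.54-fold that of Sp1-si and 1.33-fold that of NS-si → CoCl2 cells. In log2 these bounds were 0.62 ± 0.32 and 0.41 ± 0.38, each within 2 SDs of 0.

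TRAF1, which is both an adaptor of TNFRSF1B and a known NFκB target, has 2 probes that differed. The brighter one (A_23_P216970, 1 spot) had a scaled signal of 112 in NS-si and 121 in NS-si → CoCl2 cells, and 108 after Sp1 silencing alone and 135 in Sp1-si → CoCl2 cells. The 3 lower values lay within 2 SDs of their neighbours, and the CoCl2 ratio was 0.10 ± 0.07 in NS-si cells and 0.32 ± 0.07 after Sp1 silencing. The dim one (A_24_P89891, 1 spot) was well above background in both Sp1-si cultures only, at 8.90 without and 21.8 with CoCl2, against 1.55 in NS-si and 3.11 in NS-si → CoCl2 cells. Its CoCl2 ratio in Sp1-si cells was 1.29 ± 0.32, and in CoCl2 it was at least 2.74-fold higher after Sp1 silencing. With normexp the first of these became 0.17 and the second a log2 ratio of 0.15.

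TNFSF10, the gene of TRAIL, had no difference past the limit, and its spots varied widely. The 10 spots of its probe (A_23_P121253) gave a scaled signal of 31.6 in NS-si and 24.2 in NS-si → CoCl2 cells, and 33.1 after Sp1 silencing alone and 28.0 in Sp1-si → CoCl2 cells. No step between neighbours in the order of levels exceeded 2 SDs between spots, which is the spread of single spots and not the error of their mean. The CoCl2 ratio was -0.38 ± 0.27 in NS-si cells and -0.24 ± 0.11 after Sp1 silencing. The ratio of Sp1-si to NS-si was 0.07 ± 0.22 without and 0.21 ± 0.21 with CoCl2. Of these, only the CoCl2 ratio after Sp1 silencing lay beyond 2 SDs of 0, and only just. Over the alternatives of processing, the CoCl2 ratio in NS-si cells ranged from -0.61 to 0.02. The ratio of Sp1-si to NS-si under CoCl2 ranged from -0.18 to 0.61.

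TNFRSF10D, the decoy receptor with a truncated death domain, had the largest CoCl2 ratio of the set, and this ratio was smaller in Sp1-silenced cells. Its scaled signal was 36.4 in NS-si and 267 in NS-si → CoCl2 cells, and 37.2 after Sp1 silencing alone and 90.9 in Sp1-si → CoCl2 cells (A_23_P95417, 1 spot). Both cultures without CoCl2 were low and differed by less than the spread between spots, whereas the CoCl2 cultures were separate from them and from each other. The CoCl2 ratio was 2.88 ± 0.10 in NS-si cells, 7.35-fold, at position 22 from the top among 31313 measured probes. In Sp1-si cells it was 1.29 ± 0.09, 2.44-fold, at position 585 among 30685. The difference between these ratios was -1.59 ± 0.14, at position 211 from the bottom among 30234 probes. Sp1-si and NS-si cells did not differ beyond the spread without CoCl2 (0.04 ± 0.08), and under CoCl2 their ratio was -1.56 ± 0.10. With normexp the CoCl2 ratio was 1.81 in NS-si cells and 0.48 after Sp1 silencing, so that the latter fell short of the limit.

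**Figure D2:**
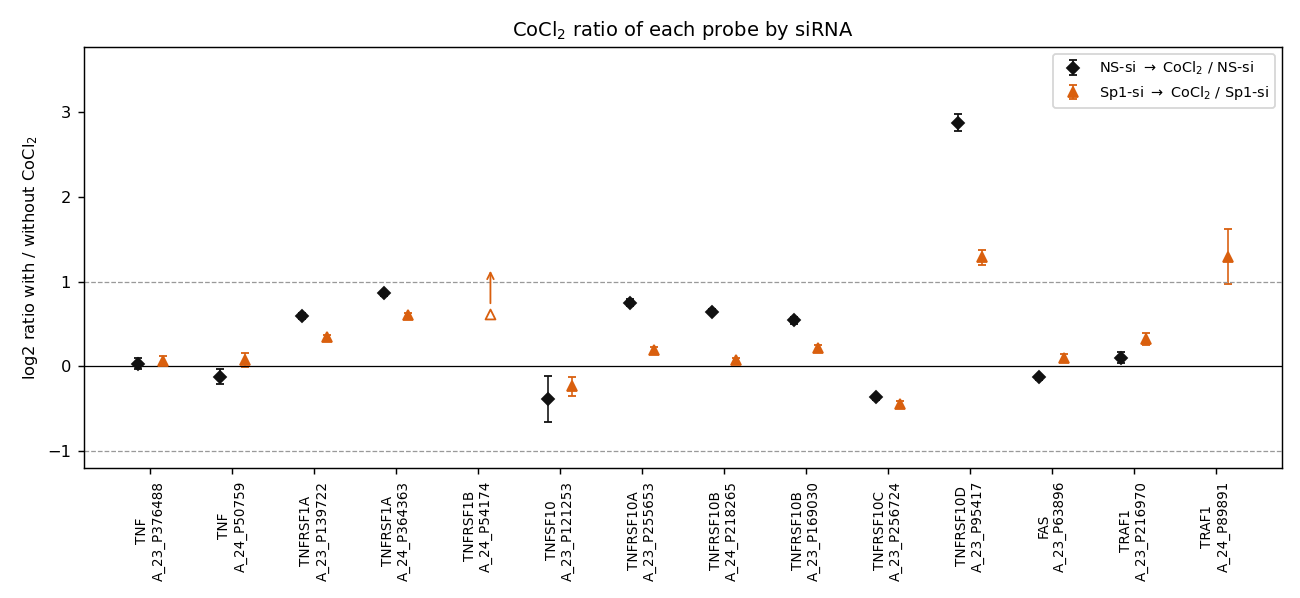
Log2 ratio of cells with to cells without CoCl2 for each probe (y axis) in NS-si cells (diamonds) and Sp1-si cells (triangles), with bars for the SD between spots; an open symbol with an arrow is a lower bound, dashed lines mark a log2 ratio of 1 in either direction, and probes with neither array well above background have no symbol. TNFRSF10D is at 2.88 in NS-si cells and 1.29 after Sp1 silencing, and the other probes measured in both kinds of cells lie between -0.44 and 0.86.

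The other TRAIL receptors of the set did not follow TNFRSF10D in size. TNFRSF10A had a scaled signal of 617 in NS-si and 1038 in NS-si → CoCl2 cells, and 381 after Sp1 silencing alone and 435 in Sp1-si → CoCl2 cells (A_23_P255653, 1 spot). It was highest in NS-si → CoCl2 cells, and both Sp1-si cultures were below both NS-si cultures. Its CoCl2 ratio was 0.75 ± 0.04 in NS-si cells and 0.19 ± 0.04 after Sp1 silencing. The gap between these was -0.56 ± 0.06, and -0.11 without scaling. The ratio of Sp1-si to NS-si was -0.70 ± 0.04 without and -1.25 ± 0.04 with CoCl2, and the second became -0.86 without scaling.

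TNFRSF10B, the other death receptor of TRAIL, was higher with CoCl2 in NS-si cells by less than the limit. The brighter probe (A_24_P218265, 1 spot) had a scaled signal of 12372 in NS-si and 19348 in NS-si → CoCl2 cells, and 13944 after Sp1 silencing alone and 14690 in Sp1-si → CoCl2 cells. The NS-si → CoCl2 culture was the high one. Its CoCl2 ratio was 0.65 ± 0.03 in NS-si cells and 0.08 ± 0.03 after Sp1 silencing. The other probe (A_23_P169030) gave 0.54 ± 0.04 and 0.22 ± 0.03, from scaled signals of 935 in NS-si and 1361 in NS-si → CoCl2 cells, and 927 after Sp1 silencing alone and 1079 in Sp1-si → CoCl2 cells. The gap between the CoCl2 ratios was -0.57 ± 0.04 for the first probe and -0.32 ± 0.05 for the second, which became -0.12 and 0.13 without scaling, so that the sign holds for the first probe only.

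TNFRSF10C, the decoy receptor without an intracellular part, went the other way. Its scaled signal was 2975 in NS-si and 2308 in NS-si → CoCl2 cells, and 1886 after Sp1 silencing alone and 1386 in Sp1-si → CoCl2 cells (A_23_P256724, 1 spot). Each step of this order, from NS-si over NS-si → CoCl2 and Sp1-si to Sp1-si → CoCl2, was larger than 2 SDs. The CoCl2 ratio was -0.37 ± 0.03 in NS-si cells and -0.44 ± 0.03 after Sp1 silencing, a gap of -0.08 ± 0.04 that turned to 0.37 without scaling and to 0.02 with median scaling. The ratio of Sp1-si to NS-si was -0.66 ± 0.03 without and -0.74 ± 0.03 with CoCl2. The coding sequences of the 4 TRAIL receptors of the set are related, and whether their probes cross-hybridise was not tested.

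FAS was nearly level over the 4 arrays. The 10 spots of its probe (A_23_P63896) gave a scaled signal of 2896 in NS-si and 2644 in NS-si → CoCl2 cells, and 2493 after Sp1 silencing alone and 2670 in Sp1-si → CoCl2 cells. Both CoCl2 cultures lay within the spread of each other (0.01 ± 0.04), NS-si was highest and Sp1-si lowest. The ratio of Sp1-si to NS-si without CoCl2 was -0.22 ± 0.03, and the CoCl2 ratio was -0.13 ± 0.03 in NS-si cells and 0.10 ± 0.04 after Sp1 silencing.

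**Figure D3:**
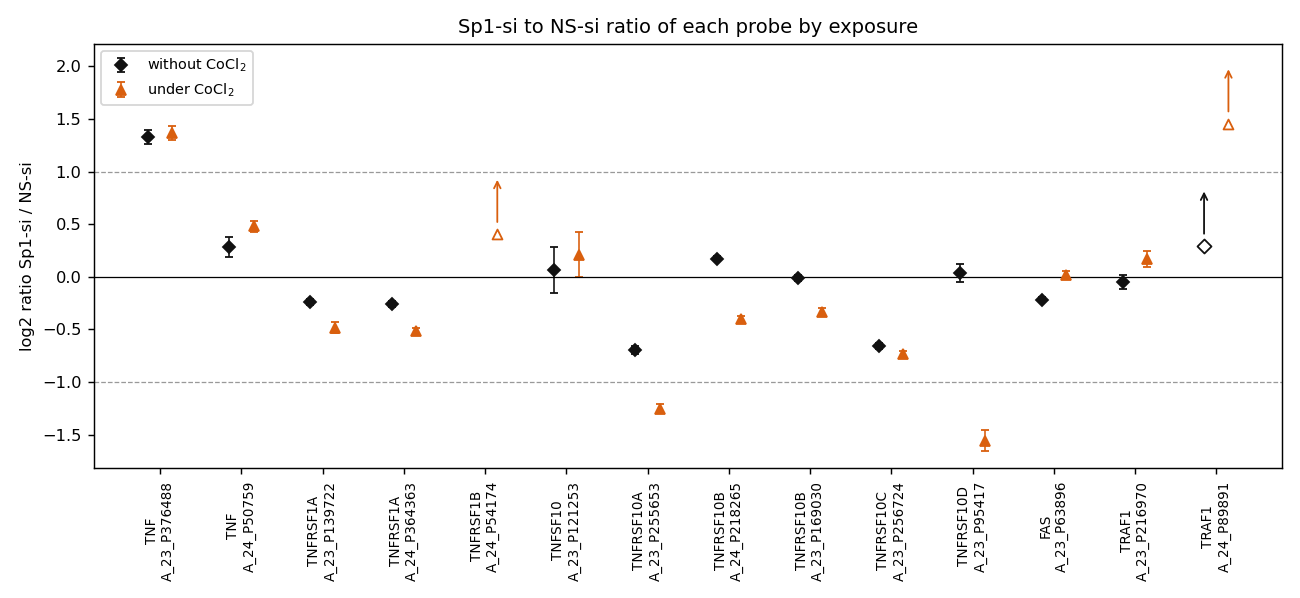
Log2 ratio of Sp1-si to NS-si cells for each probe (y axis), without CoCl2 (diamonds) and under CoCl2 (triangles), with bars, open symbols, arrows and dashed lines as in the plot of CoCl2 ratios. TNF (A_23_P376488) is at 1.33 and 1.36, TNFRSF10A at -0.70 and -1.25, and TNFRSF10D at 0.04 and -1.56.

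Under CoCl2, the 5 probes of TRAIL receptors in the set were all lower after Sp1 silencing, from -0.34 for TNFRSF10B (A_23_P169030) to -1.56 for TNFRSF10D. However, without scaling this TNFRSF10B probe turned to 0.06 and the brighter one lay at -0.002. The median over the 9 measured genes was -0.40 under CoCl2, against -0.06 over all probes, and -0.05 without CoCl2, against -0.02. For the CoCl2 ratio the median was 0.10 in NS-si cells and 0.10 after Sp1 silencing, against 0.02 and -0.01 over all probes.

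Genes of like pattern were sought for the 2 members of widest range over the 4 arrays, TNFRSF10D and TNFRSF10A, by the Euclidean distance of log2 levels centred per probe, among 20925 probes with a symbol and well above background on all 4 arrays. Nearest to TNFRSF10D were RFPL3S at a distance of 0.43, TRIB3 (A_24_P305541) at 0.51 and IRS2 at 0.57. Their CoCl2 ratios in NS-si cells were 2.40 for RFPL3S, 2.24 for TRIB3 and 2.19 for IRS2, and the gaps between their CoCl2 ratios were -1.26, -0.74 and -0.72. Nearest to TNFRSF10A were ZDHHC11 at 0.09, B3GNT9 at 0.11 and SLC17A5 at 0.12. With only 4 arrays such a likeness is a description of these levels.

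The other genes of the TNF pathway were described by 5 lists, 1 probe per gene, and counted at the same limit. Over all probes, CoCl2 left 4.53% higher and 4.34% lower in NS-si cells, and 3.72% and 6.17% in Sp1-si cells. Of the ratios of Sp1-si to NS-si, 5.5% were higher and 5.88% lower without CoCl2, and 6.31% and 9.64% under CoCl2.

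Of the 15 other ligands of the TNF superfamily, 8 could be compared for CoCl2 in NS-si cells, and 1 was higher and 0 were lower. This was TNFSF9, the ligand of the costimulatory receptor TNFRSF9, with a ratio of 1.83 ± 0.05 in NS-si cells and 1.74 ± 0.05 after Sp1 silencing, and its second probe gave 1.84 and 1.47. Sp1-si cells without CoCl2 had more TNFSF4 (1.40 ± 0.27) and TNFSF13B (1.17 ± 0.09), the latter a B cell survival factor. Under CoCl2 the ratios were 0.33 ± 0.23 and 0.32 ± 0.11. The TNFSF4 probe, with 1 spot, was at 8.42 in NS-si cells, where the lowest signal well above background was 7.25. The CoCl2 ratio of TNFSF4 was 0.21 ± 0.26 in NS-si cells and -0.86 ± 0.24 after Sp1 silencing. Its gap between these, -1.07 ± 0.34, was the 1 difference of this list past the limit. Of the probes of FASLG, the ligand of FAS, A_24_P54220 was detected in Sp1-si cells alone and A_23_P369815 in no culture.

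Of the 22 other receptors, 21 had a probe. CoCl2 raised 1 in each kind of cells, RELT, at 1.33 ± 0.03 in NS-si cells and 1.23 ± 0.03 after Sp1 silencing. In Sp1-si cells it lowered 2, which were EDA2R (-1.75 ± 0.15) and TNFRSF11B (-1.45 ± 0.03), the decoy receptor osteoprotegerin. In NS-si cells EDA2R was at -0.85 ± 0.17 and TNFRSF11B at -0.31 ± 0.03. The EDA2R probe, with 1 spot, had a scaled signal of 9.58 in Sp1-si → CoCl2 cells. The lowest signal well above background on that array was 8.91. Silencing of Sp1 left 4 higher and 1 lower without CoCl2, and 5 higher and 4 lower under CoCl2, of 18 compared in each case. The 4 lower under CoCl2 were TNFRSF11B (-1.95 ± 0.02, and -1.78 by its 10-spot probe), TNFRSF21, EDA2R (-1.15 ± 0.17) and LTBR (-1.01 ± 0.03). TNFRSF11B also had the 1 gap between CoCl2 ratios of this list past the limit, -1.14 ± 0.04. Its 10-spot probe gave -0.89, short of the limit. TNFRSF14, the receptor of the ligand LIGHT, was higher by 2.35 ± 0.04 without and 2.42 ± 0.04 with CoCl2, and TNFRSF25, a receptor with a death domain, by 1.51 ± 0.03 and 1.52 ± 0.02. TNFRSF21, another receptor with a death domain, was lower, at -1.50 ± 0.03 and -1.32 ± 0.03, as was its second probe at -1.38 and -1.53.

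Of the 29 genes that act downstream of the death receptors and TNF receptors, 28 were measured, with a median CoCl2 ratio of 0.02 in NS-si cells and 0.05 after Sp1 silencing. In NS-si cells 2 were higher and 2 lower. BIRC3, an inhibitor of apoptosis bound to TRAF proteins, had a CoCl2 ratio of 1.41 ± 0.03 in NS-si cells and 0.42 ± 0.03 after Sp1 silencing. CASP8, the initiator caspase of death receptors, was at 1.04 ± 0.03 and 0.23 ± 0.04 by its 10-spot probe, but its other probe was at -0.59 and 0.01. FADD, the adaptor that joins death domains to caspase 8, was at -1.34 ± 0.03 and -0.84 ± 0.03. MLKL, the effector of necroptosis, was at -1.02 ± 0.06 and -0.28 ± 0.06, but its other probe was at -0.86 and -0.27, short of the limit. Silencing of Sp1 left CYLD, a deubiquitinase that restrains NFκB, higher by 1.70 ± 0.06 without and 1.74 ± 0.07 with CoCl2. Under CoCl2, BIRC3 was lower by a ratio of -1.51 ± 0.03 and RNF31, a subunit of the linear ubiquitin ligase, higher by 1.08 ± 0.04.

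Of the 20 genes listed as targets of TNF and NFκB, 19 had a probe and 17 were measured, and they did not move one way. In NS-si cells CoCl2 raised 4, CXCL8 (1.88 ± 0.18), CCL20 (1.74 ± 0.10), TNFAIP3 (1.67 ± 0.04) and BIRC3, and lowered 2, CXCL2 (-1.63 ± 0.05) and IL6 (-1.15 ± 0.03). In Sp1-si cells it raised 4, CCL20 (1.44 ± 0.09), TNFAIP3 (1.33 ± 0.05), TNIP1 (1.02 ± 0.03) and BCL3 (just past the limit), and lowered 3, CXCL2 (-2.06 ± 0.05), IL6 (-1.66 ± 0.04) and CXCL1 (-1.33 ± 0.03). In NS-si cells TNIP1 was at 0.59 ± 0.03, BCL3 at 0.83 ± 0.03 and CXCL1 at -0.99 ± 0.04, each short of the limit. The other TNIP1 probe was at 1.03 in NS-si cells and at 1.28 in Sp1-si cells, past the limit in both. The other CXCL2 probe was at -0.98 in NS-si cells, short of the limit, and at -1.37 in Sp1-si cells. CXCL8 and BIRC3 were not among the genes raised in Sp1-si cells, and CXCL8 was at 0.68 ± 0.16. Its gap between the CoCl2 ratios, -1.20 ± 0.26, was the 1 difference of this list past the limit, from a dim probe with 1 spot. The scaled signal of CXCL8 was 12.5 in NS-si and 45.9 in NS-si → CoCl2 cells, and 13.2 after Sp1 silencing alone and 21.1 in Sp1-si → CoCl2 cells. BIRC3, with a far brighter probe, had a gap of -0.99 ± 0.04, just short of the limit. Silencing of Sp1 left 1 gene higher and 0 lower without CoCl2, which was IL6 at 1.75 ± 0.04. Under CoCl2 it left 1 higher, again IL6 (1.24 ± 0.02), and 2 lower, BIRC3 and CXCL8 (-1.12 ± 0.19). The median CoCl2 ratio of the list was 0.35 in NS-si cells and 0.33 after Sp1 silencing, and that of Sp1-si to NS-si was 0.09 without and -0.14 with CoCl2.

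A last list held 8 genes known to induce death receptor genes or to be induced with them. In NS-si cells, CoCl2 raised TRIB3 by 1.83 ± 0.03 and GDF15 by 1.35 ± 0.03. After Sp1 silencing the ratio was 1.40 ± 0.03 for TRIB3 and 0.50 ± 0.03 for GDF15. DDIT3, which encodes the stress factor CHOP, was at 0.50 ± 0.06 and 0.26 ± 0.06. For the ratio of Sp1-si to NS-si, CDKN1A, an inhibitor of the cell cycle, was at 0.00 ± 0.02 without and 0.10 ± 0.03 with CoCl2. MDM2, a ubiquitin ligase, was at 0.01 ± 0.03 and 0.21 ± 0.03 by its brightest probe, but at 0.11 and -0.82 by its 10-spot probe (A_23_P502750).

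**Figure D4:**
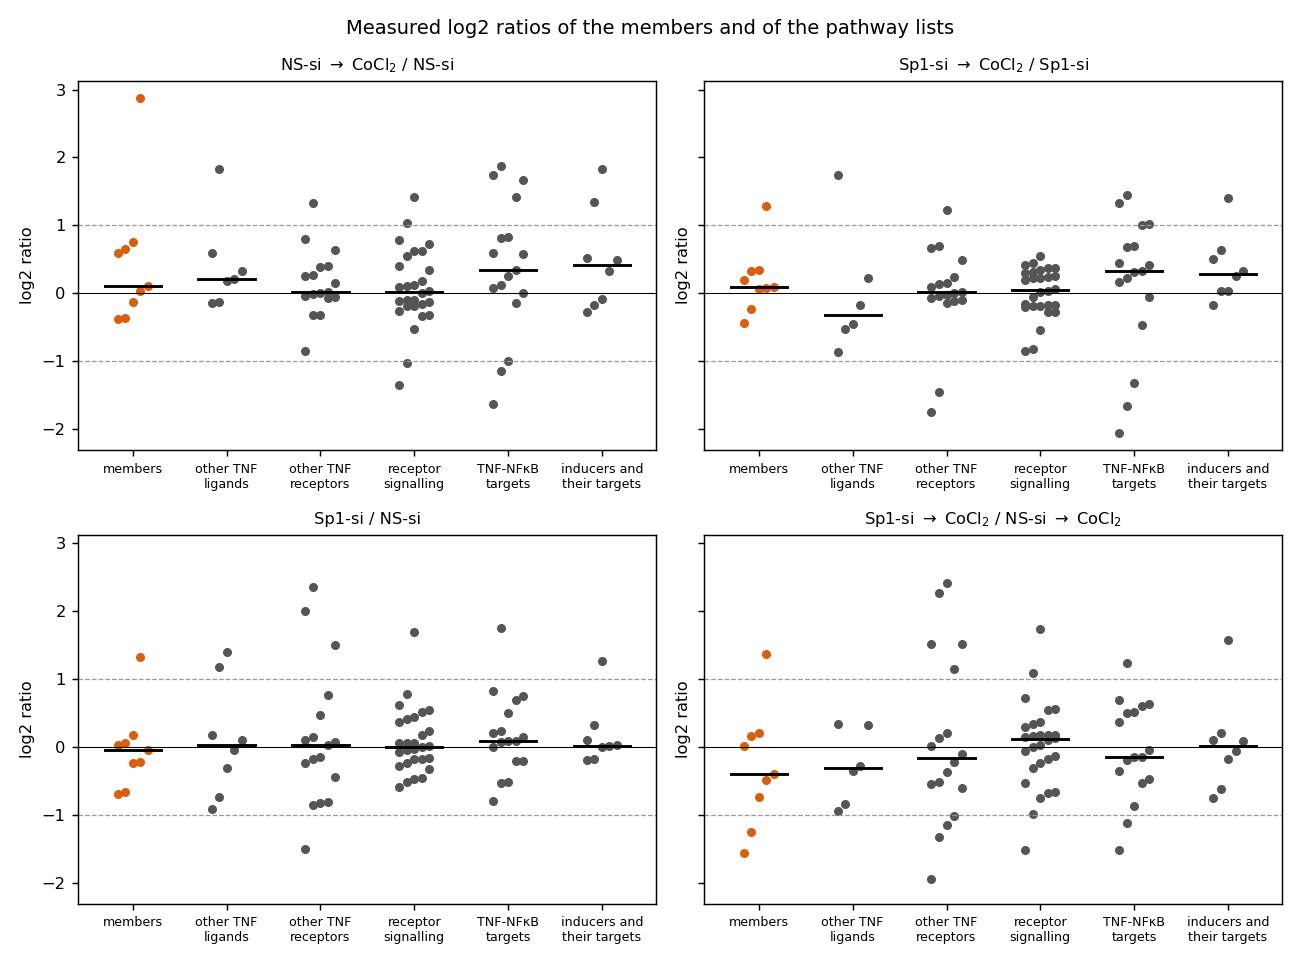
Measured log2 ratios (y axis) of the members with a value and of the genes of 5 pathway lists, 1 point per gene and 1 panel per comparison, with a bar at the median and dashed lines at a log2 ratio of 1 in either direction. Lower bounds are left out. In NS-si cells TNFRSF10D lies highest of all points for CoCl2, at 2.88, and the medians of the 5 lists lie between 0.02 and 0.41.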

How the data were processed

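RNA of 4 OVSAYO cultures was hybridised to Agilent 4x44K arrays. The intensities deposited by the authors are processed signals of Agilent Feature Extraction 10.5.1.1, background-subtracted and detrended within each array per the file headers, and not normalized between arrays. The deposited value table equals them times 1 constant per array. Here, log2 processed signals of non-control spots, without outlier spots, were reduced by the 75th percentile of the array and averaged per probe. A probe was well above background where at least 50% of its spots were. Where 1 array of a pair was not, the bound used the higher of the lowest signal well above background and the own signal of the probe. Symbols came from RefSeq accessions (28463 of 29877 spots matched). The array annotation uses hg18, so gene coordinates of the newer table are not given except for its own promoter windows. A gene was represented by its probe of highest mean signal.

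Named were all 10 members with every probe, SP1, from each list genes among the 3 highest and 3 lowest ratios of a comparison, and the 3 nearest genes in pattern. FASLG, the ligand of FAS, CXCL3 and the undetected cell markers fall outside this rule and were chosen after their values were seen. One listed gene is not reported here. Members, lists and limits were chosen with earlier results of these data known. Alternatives were median, quantile or no scaling, the percentile over probes detected on every array, the deposited table, outlier spots kept, other background filters, a fold of 1.5, the mean over probes, and normexp (offset 50) on median signals, added after the data were seen. The code for the calls was run on simulated arrays with planted changes well past the limit, which tests neither calls near the limit nor the conditions. Python 3.11.15, numpy 2.4.6, pandas 2.3.3, R 4.3.3 and limma 3.58.1 were used.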

Additional observations from a re-analysis of the deposited data

Results flagged for a closer look

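The CoCl2 ratio had opposite signs in NS-si and Sp1-si cells for 2 probes of the set, and this difference was not tested since each condition has 1 array. FAS (A_23_P63896) was at -0.13 in NS-si cells and 0.10 after Sp1 silencing, and TNF (A_24_P50759) at -0.12 and 0.073. The TNF values lie within 2 SDs between spots of 0, which is the spread of single spots and not the smaller error of their mean.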

How the results depend on the processing

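No replicate could be left out, since each condition has 1 array, and normexp on mean signals was not run because the files used here give median signals. None of the 9 ratios past the limit changed sign under any alternative, and 22 of 518 recomputed ratios of single probes did, all of them short of the limit. The number of genes changed by CoCl2 in NS-si cells was 1, and 4 at a fold of 1.5. In Sp1-si cells it was 1, and 0 with normexp, and 2 with the laxer background flag, with no background filter or at a fold of 1.5. For Sp1-si against NS-si cells without CoCl2 it was 1, and 3 at a fold of 1.5 and 0 with the mean over probes. Under CoCl2 it was 3, and 2 without scaling, where TNFRSF10A was at -0.86, 2 with normexp, where TNF was at 0.96, 2 with the mean over probes, without TNF, and 4 at a fold of 1.5, with TNFRSF10C added. For the difference between the CoCl2 ratios it was 1, and 2 with the laxer background flag or with no background filter, the added gene being TNFRSF1B. Leaving out the scaling moved the median of all probes from -0.06 to 0.33 for Sp1-si against NS-si cells under CoCl2, from 0.02 to -0.21 for CoCl2 in NS-si cells and from -0.02 to 0.21 for CoCl2 in Sp1-si cells. TNFRSF10D ranged over the alternatives from 1.81 to 2.92 for CoCl2 in NS-si cells, and its difference between the CoCl2 ratios from -1.60 to -1.14. The cause of these shifts was not tested. Signals near background limit what can be said of TNFRSF1B, the dim TRAF1 probe and dim probes of the lists, such as those of CXCL8, EDA2R and TNFSF4.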

Other observations

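Probes of 1 gene disagreed for some genes of the pathway lists, which were chosen for mention after their values were seen. The 10-spot CASP8 probe (A_23_P209389) had a CoCl2 ratio of 1.04 in NS-si cells and 0.23 after Sp1 silencing, whereas A_24_P157087 gave -0.59 and 0.01, both well above background on all 4 arrays. For TNFRSF19, A_24_P56310 had a log2 ratio of Sp1-si to NS-si of 2.26 under CoCl2, whereas A_23_P140057 was detected in NS-si → CoCl2 cells alone and gave an upper bound of -1.76. For CFLAR, the inhibitor of caspase 8 activation, the ratio of Sp1-si to NS-si under CoCl2 was 0.55 for A_23_P209394 and -0.07 for A_24_P120115. For CXCL3, A_24_P183150 had a CoCl2 ratio of -1.44 in NS-si cells and -1.95 after Sp1 silencing. Its other probe, A_24_P251764, gave -0.15 and -0.46, short of the limit.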
